A study of Mus musculus with 49 samples.

Results

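Synovial fluid cells, the leukocytes and other cells that collect in the space of an inflamed joint, were compared between day 7 and day 3 after the first injection of K/BxN serum. The comparison took the 4 arrays labelled synovial fluid at day 7 and the 3 labelled synovial fluid at day 3, which are 7 of the 49 arrays of the series. All recipients were male B6 mice of 6 weeks, every group used here received K/BxN serum, and no fluid from before serum was analysed here. Serum of K/BxN mice carries arthritis-inducing autoantibodies, and its transfer inflames the joints of healthy recipients. Whole ankle and blood leukocytes were sampled on the same days (3 and 4 ankle arrays, 3 and 3 blood arrays) and are used here only to set the change in fluid beside theirs.

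The fluid samples were not prepared alike. Replicate 1 of each day was washed out of dissected ankles, replicates 2 and 3 of each day were taken while ankles were dissected, and replicate 4 of day 7 carries another description that names only Trizol extraction and amplification by 2 rounds of in vitro transcription. No sort was applied, so each value is a mixture of whatever cells the fluid held. In such bulk samples, fewer cells of a type and less RNA per cell cannot be told apart. Nothing in the labels says that the fluid replicates came from separate animals, so the p-values reflect variation among these arrays only, some of which may be technical.

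In K/BxN serum arthritis, immune complexes activate complement and Fc receptors in the joint, neutrophils enter along chemokine gradients, monocytes and macrophages follow, and fibroblasts of the synovial lining take part by secreting matrix, matrix-degrading enzymes and chemokines. CXC chemokines that bind CXCR2 draw mainly neutrophils, and CC chemokines such as Ccl2 draw mainly monocytes. The title of the series concerns CXCR2. The comparison asks how the transcripts of fluid cells differed between an early and a later day of the disease.

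The 7 arrays had median intensities from 57.7 to 62.7, and 0 pairs of arrays were identical. Replicates correlated across genes at r from 0.963 to 0.987 on day 3 and from 0.951 to 0.983 on day 7, and arrays of different days at r from 0.949 to 0.986. Markers of neutrophils and monocytes lay above background only in part. A mean above it on day 3 or day 7 was reached by 14 of 23 measured markers of mature neutrophils. The same held for 5 of 15 of neutrophil granule precursors and 19 of 24 of monocytes and macrophages. Among the bright ones S100a8 had a mean log2 intensity of 12.07 on day 3 and 12.12 on day 7, S100a9 of 11.82 and 11.78, Cd14 of 12.96 and 12.28 and Csf1r of 10.54 and 10.32. Albumin (Alb, 4.8 and 4.59) and muscle actin (Acta1, 4.6 and 4.44) lay under the background limit of 6.85, which is the 95th percentile of negative control probe sets. As a reading of RNA length, the beta-actin control probes at the 3' end were set against those at the 5' end. Their log2 ratio, which is higher for shorter RNA, was 2.39, 2.17 and 1.59 on day 3 and 2.69, 2.74, 2.90 and 2.74 on day 7. These ratios did not overlap between the days, and this accompanies every result that follows. Haemoglobin (Hba-a1), the main transcript of red cells, ranged from 11.43 to 13.27 on day 3 and from 10.04 to 11.73 on day 7, ranges that overlapped.

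Of 8251 genes, 179 rose and 32 fell from day 3 to day 7 (limma, Benjamini-Hochberg adjusted p under 0.05). These are 2.17% and 0.388% of the genes tested, together 2.56%, and 858 genes (10.4%) had an unadjusted p under 0.05. The counts of risen and fallen genes in each list below are read beside the 2.17% and the 0.388%. The arrays of the days did not overlap for 177 of the 179 risen genes and for all 32 fallen ones, against 416 genes higher (5.04%) and 250 lower (3.03%) among all genes. The median difference, on the log2 scale, was 1.22 over the risen genes and -0.92 over the fallen ones, and -0.02 over all genes. Both group means exceeded the background limit for 61 risen and 13 fallen genes. For 72 risen and 13 fallen genes both means lay under it (within background), and a fold is given only where both means lay above it.

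Single genes differed in size between the preparations: Cxcl5 by 1.60 between the washed-out pair and by 3.23 between the arrays taken during dissection, Cxcl1 by 1.17 and 2.05, and Cd86 by -1.53 and -0.88. The medians over the called genes were 1.23 and 1.28 for the risen and -0.92 and -0.90 for the fallen, but these genes were called from the same arrays. With preparation as a covariate 179 of the 179 and 28 of the 32 passed, whereas a fit of the dissected fluid samples alone, with 2 arrays on each day, called 104 higher and 8 lower. Each of the 7 arrays was also left out in turn, which gave 123 to 179 higher and 20 to 50 lower genes (50 lower without day 7 replicate 1 or 2, 20 without replicate 3), and 106 risen and 13 fallen genes were called in all 7 of these fits. With the beta-actin ratio added as covariate 124 of the 179 and 14 of the 32 passed, and with the Hba-a1 level 56 and 1. Both covariates were chosen after the data were seen, and the part of RNA length or of red cell transcripts in the calls was not tested. Calls lost in the dissected samples alone or with these covariates are mostly not repeated for each gene below.

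Genes of connective tissue led the rises. Of 25 measured genes of collagens and matrix, 16 rose and 0 fell, with a median difference of 1.71, beside the 2.17% of all genes that rose and the median of -0.02 over all genes. They include the fibrillar collagen chains Col1a1, Col1a2, Col3a1, Col5a1 and Col5a2, the basement membrane genes Col4a1, Col4a2 and Lamb1, the collagen VI chains Col6a1 and Col6a3, the small proteoglycans Bgn, Dcn and Lum, tenascin C (Tnc), Sparc, and lysyl oxidase (Lox), which cross-links collagen. Among 21 measured markers of synovial fibroblasts, the matrix-producing cells of the joint lining, 13 rose and 0 fell, with a median of 1.79. The summed intensity of these markers was 8150 to 9255 on day 3 and 23932 to 29079 on day 7. The lists share 11 measured genes, 9 of which rose, so they are not separate evidence. In the dissected samples alone 12 of 25 and 10 of 21 rose, with medians of 1.66 and 1.81, and with the Hba-a1 level as a covariate 10 and 7, with medians of 1.64 and 1.64.

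Fibrillar collagen genes showed the shift in every array. Values are given in the order of the replicates, so that the first of each day is the washed-out sample and the last of day 7 the one described otherwise. Col1a2, the alpha 2 chain of type I collagen, had log2 intensities of 8.41, 8.40 and 9.21 on day 3 and of 10.96, 11.02, 11.70 and 11.23 on day 7. The lowest day 7 array stood above the highest day 3 array, and the difference was 2.55 ± 0.26 (5.86-fold, adjusted p = 4.63e-05). Col3a1, the chain of type III collagen, went from 8.53, 9.18 and 9.72 to 11.01, 11.51, 12.04 and 11.45. It too was separated by day in all arrays and rose by 2.36 ± 0.29 (5.13-fold, adjusted p = 0.000209). Col5a2, a chain of the type V collagen that initiates fibrils, had a narrow spread, with 7.34, 7.38 and 7.45 on day 3 and 10.23, 10.47, 10.80 and 10.19 on day 7, and rose by 3.03 ± 0.20 (8.17-fold, adjusted p = 1.38e-06). Other probe sets of Col3a1 differed by 2.41 and 3.38, while the other probe set of Col1a2 differed by 0.14 at means of 7.62 and 7.76, above background.

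The 250 bases upstream of the annotated start are shown for these collagen genes and for a pair of metalloproteinase genes described further on, because members of both the matrix and the protease group rose. The sequences are RefSeq's for assembly GRCm38.p6, all on the plus strand and written 5′ to 3′. Capitals mark matches, on either strand, to the AP-1 motif TGANTCA, the TATA box TATAAA and the CCAAT box CCAAT, and no marked matches overlap.
Col1a2 (chr6:4505368-4505617, plus strand): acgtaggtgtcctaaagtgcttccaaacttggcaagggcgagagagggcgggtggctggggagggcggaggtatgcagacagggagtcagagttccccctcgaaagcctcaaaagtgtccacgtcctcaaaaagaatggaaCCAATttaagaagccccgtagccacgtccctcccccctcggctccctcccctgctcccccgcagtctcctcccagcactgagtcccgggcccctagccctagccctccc
Col3a1 (chr1:45311288-45311537, plus strand): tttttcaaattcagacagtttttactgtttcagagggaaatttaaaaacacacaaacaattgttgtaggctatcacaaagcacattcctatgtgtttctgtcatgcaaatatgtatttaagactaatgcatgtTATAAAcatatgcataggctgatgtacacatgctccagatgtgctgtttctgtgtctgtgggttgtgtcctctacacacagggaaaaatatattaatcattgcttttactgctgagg
Mmp3 (chr9:7445572-7445821, plus strand): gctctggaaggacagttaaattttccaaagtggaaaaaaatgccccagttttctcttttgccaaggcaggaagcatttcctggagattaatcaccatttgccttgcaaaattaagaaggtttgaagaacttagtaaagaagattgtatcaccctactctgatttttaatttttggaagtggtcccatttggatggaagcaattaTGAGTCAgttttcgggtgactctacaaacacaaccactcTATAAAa
Mmp13 (chr9:7272264-7272513, plus strand): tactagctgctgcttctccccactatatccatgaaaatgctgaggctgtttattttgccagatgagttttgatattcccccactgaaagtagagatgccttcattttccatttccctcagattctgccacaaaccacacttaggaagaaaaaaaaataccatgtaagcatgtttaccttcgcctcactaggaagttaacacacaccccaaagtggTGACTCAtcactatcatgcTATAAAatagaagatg
Counted from the start, the Col1a2 window held a CCAAT box at -109 to -105 and the Col3a1 window a TATA box at -117 to -112. Mmp3 and Mmp13 each held an AP-1 motif, TGAGTCA at -46 to -40 and TGACTCA at -35 to -29, with a TATA box between it and the start. Among 32851 promoters of the table, windows of the same length held the AP-1 motif in 6.75%, the TATA box in 12.4% and the CCAAT box in 33.8%. A match describes the letters and does not show that a factor binds there.

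Proteoglycans and matrix-modifying genes moved in the same direction. Lum, the proteoglycan lumican, had the largest rise of all genes called: it lay at 6.12, 6.17 and 6.95 on day 3 and at 8.60, 9.94, 10.40 and 10.18 on day 7, a difference of 3.37 ± 0.36 (adjusted p = 6.25e-05). Its washed-out day 7 array was the lowest of that day, and its day 3 mean was 6.41, within background. Bgn, biglycan, rose by 2.54 ± 0.25 (5.81-fold, adjusted p = 3.7e-05), from 8.82, 8.72 and 9.12 to 11.43, 11.15, 11.79 and 11.32, and its other probe set differed by 0.98. Lox went from 4.57, 5.12 and 5.0, all within background, to 7.23, 7.60, 8.10 and 8.04, and rose by 2.85 ± 0.28 (adjusted p = 3.7e-05), with a difference of 0.64 in its other probe set. Lamb1, the beta 1 chain of laminin, rose by 2.69 ± 0.25 (adjusted p = 3.39e-05) from a day 3 mean of 5.56, and its other probe set differed by 1.98. Fibulin 2 (Fbln2), an elastic fibre protein, rose by 2.34 ± 0.21 (5.08-fold), follistatin-like 1 (Fstl1) by 2.33 ± 0.28 (5.01-fold) and Sparc by 2.22 ± 0.46 (4.67-fold, adjusted p = 0.0123). Sparc had the widest spread of these, from 6.41 to 8.84 on day 3 and from 9.17 to 10.85 on day 7. Gas1, a growth arrest gene anchored in the membrane, rose by 2.47 ± 0.27 (5.53-fold).

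**Figure D1:**
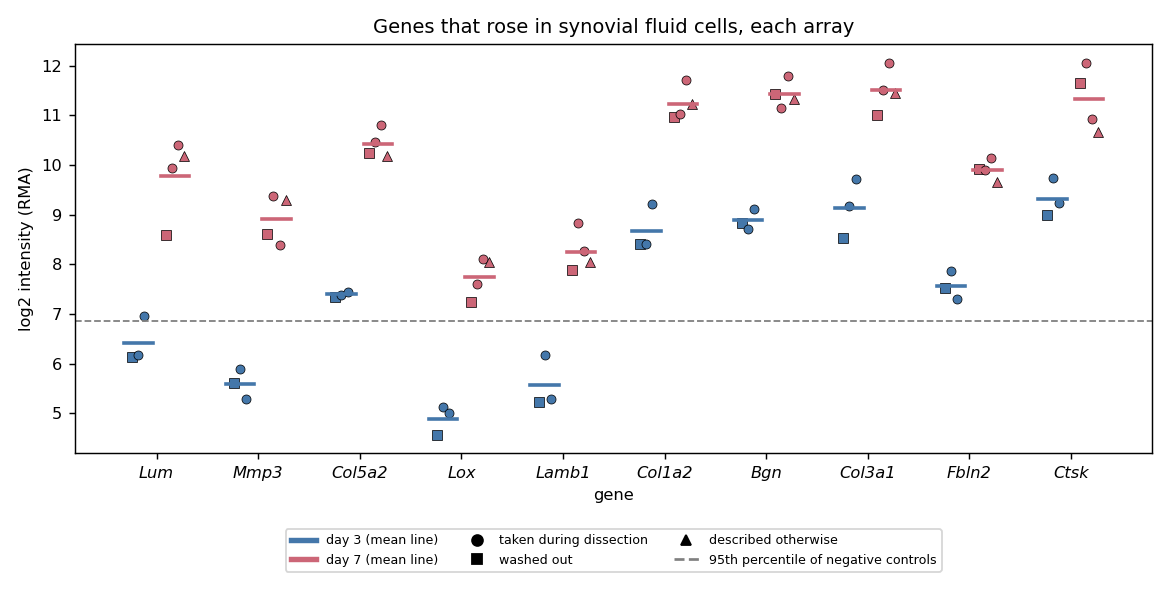
Log2 intensity (RMA) of 10 risen genes in each fluid array, blue for day 3 and red for day 7, with the group mean as a line and the shape of a point giving the preparation; the dashed line is the background limit (6.85). The days do not overlap for any of these genes, and Lum, Mmp3, Lox and Lamb1 have day 3 means under the dashed line.

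Serpinh1, the collagen chaperone HSP47, went from 6.38, 7.98 and 7.91 to 9.24, 10.11, 10.44 and 9.37 and rose by 2.37 ± 0.39 (5.15-fold, adjusted p = 0.00214). Ppic, a secretory pathway cyclophilin, rose by 2.33 ± 0.28 (adjusted p = 0.000201), Fkbp7 by 1.88 ± 0.16 (adjusted p = 1.53e-05) and Kdelr3, a receptor that returns proteins to the endoplasmic reticulum, by 2.19 ± 0.22 (adjusted p = 3.7e-05). Further risen genes were picked after their values were seen, so they support no statement on a group. Fkbp9 rose by 1.71, Loxl1, a lysyl oxidase relative, by 1.00, the prolyl 3-hydroxylase partner Crtap by 0.86 and Bmp1, which cleaves the carboxyl propeptide of collagen, by 0.73. Of 22 measured genes of general protein folding and stress of the endoplasmic reticulum 0 passed, with a median of 0.03.

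Among further genes linked to fibroblasts, also chosen after their values were seen, periostin (Postn) went from 3.78, 3.77 and 4.21 to 5.29, 6.32, 6.28 and 6.55 and rose by 2.19 ± 0.23 (adjusted p = 6.25e-05), and fibroblast activation protein (Fap) rose by 2.05 ± 0.26 (adjusted p = 0.000224). Both means of both genes lay within background. Pdgfra, the receptor for platelet-derived growth factor on mesenchymal cells, rose by 2.14 ± 0.31 (4.42-fold, adjusted p = 0.000846). Its other probe sets differed by -0.07, at means of 7.46 and 7.39 above background, and by 0.16. Podoplanin (Pdpn), a marker of the synovial lining, had 5.06 ± 0.73 (SD, n = 3) on day 3 and 5.21 ± 0.37 (SD, n = 4) on day 7, a difference of 0.16 ± 0.27, and fibronectin (Fn1), which macrophages make as well, differed by -0.06 ± 0.16 at means of 9.02 and 8.96. Decorin (Dcn) rose by 1.79 ± 0.41 (3.46-fold, adjusted p = 0.026), but its days overlapped, and the call was lost with the replicate block (adjusted p = 0.0654), without day 3 replicate 1 (adjusted p = 0.136) or 2 (adjusted p = 0.115) and without day 7 replicate 3 (adjusted p = 0.0915) or 4 (adjusted p = 0.0921).

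Markers of other tissues of the joint were examined beside the fibroblast markers. Of 12 measured genes of cartilage and 16 of skeletal muscle, 0 rose and 0 fell, with medians of -0.03 and 0.02, and their summed intensities were 906 to 1152 on day 3 against 869 to 1254 on day 7 and 1331 to 1763 against 1474 to 2209. Of 12 measured endothelial genes 0 rose and 1 fell, with sums of 1021 to 1090 and 995 to 1212. The one that fell was Lyve1, a marker of lymphatic endothelium and of some tissue macrophages. Lyve1 went from 6.02, 5.18 and 7.64 to 4.57, 4.29, 4.87 and 4.92, with both means within background. It fell by 1.62 ± 0.38 (adjusted p = 0.0289), with a wide spread on day 3, and its adjusted p lay between 0.0533 and 0.0743 in the fits without day 3 replicate 1 or without any single day 7 replicate. The part of fibroblasts carried into the fluid in the matrix differences was not tested.

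**Figure D2:**
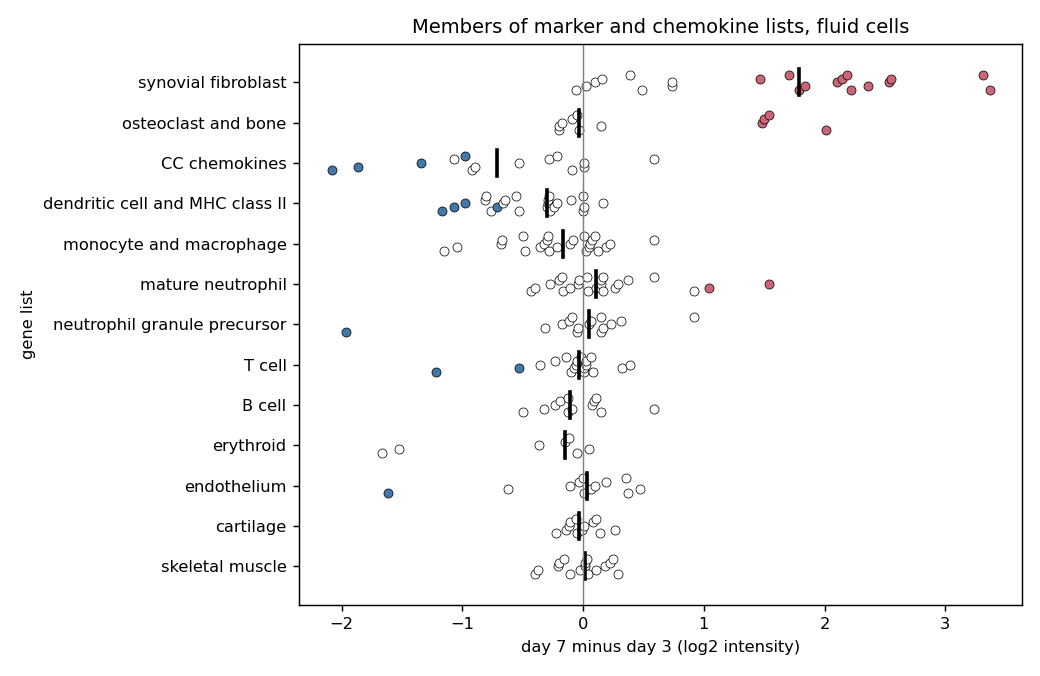
Difference between day 7 and day 3 (log2 intensity) for every measured member of 13 gene lists, with the list median as a black bar; red points rose, blue points fell and open points did not pass the adjusted p of 0.05. The synovial fibroblast list lies to the right with a median of 1.79, the CC chemokines to the left with a median of -0.72, and the medians of the leukocyte lists lie between -0.30 and 0.10.

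Some proteases that degrade matrix rose beside the matrix genes. Of 19 measured metalloproteinases and their inhibitors, 4 rose, namely Mmp2, Mmp3, Mmp9 and Mmp13, and 0 fell, beside 2.17% and 0.388% of all genes. The other 15 did not pass, and the median was 0.14. Mmp3, stromelysin 1, a broad protease of stromal cells, stood at 5.61, 5.90 and 5.29 on day 3, all within background, and at 8.60, 9.37, 8.39 and 9.28 on day 7. It rose by 3.32 ± 0.34 (adjusted p = 4.56e-05), and the days did not overlap. Mmp9, the gelatinase stored in neutrophil granules and made by osteoclasts, went from 8.92, 8.63 and 8.77 to 10.24, 10.66, 10.68 and 9.66 and rose by 1.54 ± 0.30 (2.90-fold, adjusted p = 0.00802). Mmp13, the collagenase of rodent cartilage and bone, went from 4.27, 4.19 and 4.17 to 5.82, 7.3, 5.42 and 7.57. Its day 7 arrays fell into a lower and a higher pair, and both of its group means lay within background. It rose by 2.32 ± 0.50 (adjusted p = 0.0169), a call lost with the replicate block (adjusted p = 0.0966), without day 3 replicate 1, 2 or 3 (adjusted p = 0.0538, 0.0677 and 0.0589) and without day 7 replicate 4 (adjusted p = 0.0636). Mmp2 rose by 0.87 ± 0.14 within the background range, and its other probe set differed by -0.07.

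A further protease marks the osteoclast, the bone-resorbing cell. Of 11 measured genes of osteoclasts and bone, 4 rose and 0 fell, with a median of -0.04, beside the 2.17% of all genes that rose. Those were Ctsk, Acp5, Tnfsf11 and Mmp9, the last also counted among the metalloproteinases. Ctsk, cathepsin K, which osteoclasts and synovial fibroblasts both make, went from 8.98, 9.73 and 9.22 to 11.64, 12.06, 10.93 and 10.67, and rose by 2.01 ± 0.32 (4.03-fold, adjusted p = 0.00185). Acp5, tartrate-resistant acid phosphatase, rose by 1.5 ± 0.34 (2.82-fold, adjusted p = 0.026), from 7.49, 7.52 and 7.18 to 8.85, 9.95, 8.67 and 8.12. It did not pass without day 3 replicate 1, 2 or 3 (adjusted p = 0.0678, 0.0758 and 0.115). Tnfsf11, RANKL, the cytokine that drives osteoclast formation, rose by 1.48 ± 0.31 (adjusted p = 0.0139) from 3.57, 3.5 and 3.46 to 4.97, 5.49, 4.64 and 4.86, all within background, and lost its call without day 3 replicate 2 or 3 (adjusted p = 0.0584 and 0.0531). Slc9b2, a sodium-proton exchanger known from osteoclasts and named after its values were seen, rose by 2.30 ± 0.38 (adjusted p = 0.00212) from 4.24, 4.21 and 3.95 to 5.18, 7.23, 7.08 and 6.26. Both of its group means lay within background. The RANK receptor gene Tnfrsf11a (5.35 and 5.18), the osteoclast factor Nfatc1 (7.37 and 7.28) and the calcitonin receptor Calcr (3.36 and 3.16) differed by -0.17, -0.09 and -0.20, none past the threshold. Of 21 lysosomal proteases and cystatins only Ctsk passed, with a list median of -0.07.

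Chemokine genes changed in both directions. Of the 4 measured genes of CXCR2 and its ligands 2 rose and 0 fell, whereas of 14 measured CC chemokines 0 rose and 4 fell, beside 2.17% and 0.388% of all genes. Cxcl5 lay at 4.78, 4.85 and 4.88 on day 3, within background, and at 6.38, 8.03, 8.16 and 6.42 on day 7. It rose by 2.41 ± 0.42 (adjusted p = 0.00337), and the day 7 replicates taken during dissection were the higher pair. Cxcl1 stood at 7.33, 7.31 and 7.83 on day 3 and at 8.50, 9.54, 9.70 and 8.31 on day 7, with the same high pair, and rose by 1.52 ± 0.38 (2.87-fold, adjusted p = 0.0416). This call was lost without any of the day 3 arrays (adjusted p = 0.138, 0.176 and 0.0607), without day 7 replicate 2 (adjusted p = 0.107) or 3 (adjusted p = 0.135), and after centring each array on its median (adjusted p = 0.0527), although the other Cxcl1 probe set differed by 1.46. Cxcl2, the third measured ligand, had 9.30, 9.68 and 10.61 on day 3 and 8.13, 9.74, 9.78 and 8.83 on day 7, a difference of -0.74 ± 0.37 that did not pass (adjusted p = 0.539). The receptor gene Cxcr2 lay within background on all arrays, from 4.44 to 5.06 on day 3 and from 4.86 to 5.30 on day 7 (difference 0.27 ± 0.20, adjusted p = 0.776).

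The CC chemokines had a median difference of -0.72, with 11 differences below 0 and 3 above it. With the replicate block 3 of them passed as lower and 1 as higher. Ccl2, the main attractant of monocytes through CCR2, had 10.56, 10.64 and 11.40 on day 3 and 8.72, 9.63, 8.89 and 8.75 on day 7. Every day 7 array lay below every day 3 array, and Ccl2 fell by 1.87 ± 0.27 (3.65-fold lower, adjusted p = 0.000846). Ccl7, which also acts on CCR2, went from 7.99, 8.45 and 8.74 to 6.21, 7.03, 6.17 and 5.85 and fell by 2.08 ± 0.32 (adjusted p = 0.00135), to a day 7 mean of 6.31 within background. Ccl17, an attractant of CCR4-bearing T cells, fell by 0.98 ± 0.16 (adjusted p = 0.00216), from 6.90, 6.53 and 7.15 to 5.76, 6.10, 5.71 and 5.95. Ccl4, MIP-1β, went from 9.29, 8.51 and 9.10 to 7.89, 7.98, 7.78 and 6.83 and fell by 1.35 ± 0.33 (2.54-fold lower, adjusted p = 0.0404). The Ccl4 call was lost with the replicate block (adjusted p = 0.119), without day 3 replicate 1 (adjusted p = 0.16) or 3 (adjusted p = 0.145) and without day 7 replicate 3 (adjusted p = 0.0742) or 4 (adjusted p = 0.113). Other macrophage chemokines, named after their values were seen, differed in the same direction without passing: Ccl3 by -0.92 (adjusted p = 0.0656), Ccl6 by -0.90 (adjusted p = 0.142) and Ccl9 by -1.07 (adjusted p = 0.119). In the dissected samples alone 2 CC chemokines passed, with a list median of -0.63, and with the Hba-a1 level as a covariate 0, with a median of -0.66.

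Of 8 other CXC, CX3C and XC chemokines 0 passed. Cxcl12, a chemokine of stromal cells, had 6.94, 5.72 and 5.68 on day 3 and 7.4, 7.29, 7.08 and 7.00 on day 7, a difference of 1.08 ± 0.28 (adjusted p = 0.0623). It passed with the replicate block (adjusted p = 0.038) and without the washed-out day 3 array (adjusted p = 0.00326), and its other probe sets differed by 1.29 and 2.75. Among 21 chemokine and chemoattractant receptors 1 rose. That was Ackr3, a scavenging receptor for Cxcl12, by 1.52 ± 0.38 (2.87-fold, adjusted p = 0.0439), with overlapping days and a call lost with the replicate block (adjusted p = 0.0749) and without day 3 replicate 1 or 2 (adjusted p = 0.16 and 0.269) or day 7 replicate 2, 3 or 4 (adjusted p = 0.0797, 0.136 and 0.0921). The leukotriene B4 receptor gene Ltb4r1, which acts on neutrophils, differed by -0.90 ± 0.29 (adjusted p = 0.177).

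**Figure D3:**
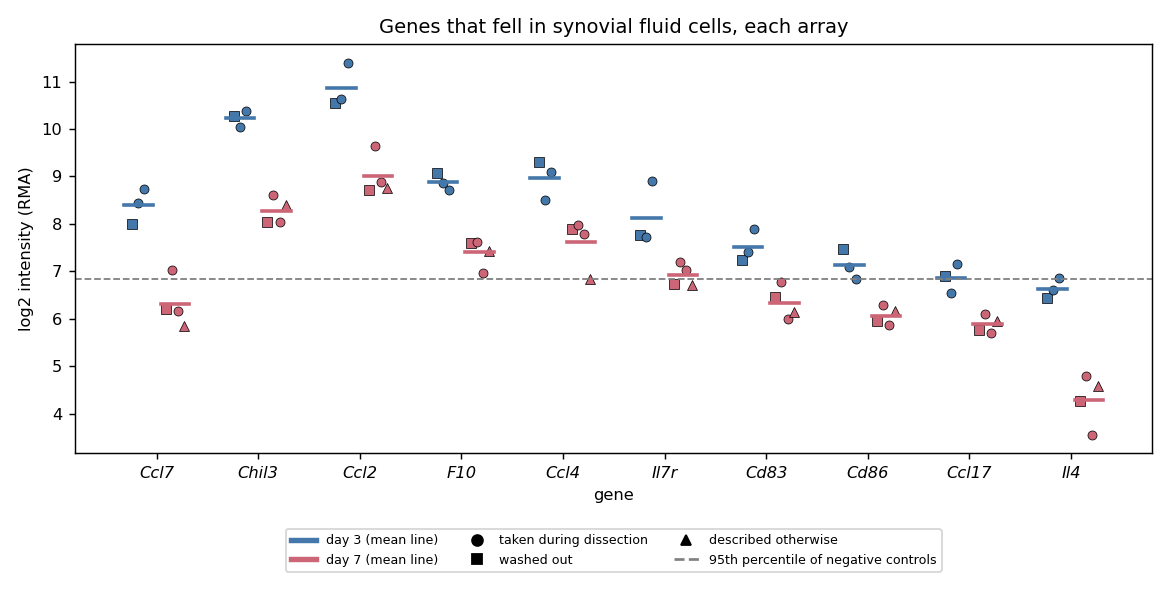
Log2 intensity (RMA) of 10 fallen genes in each fluid array, drawn as for the risen genes. In all 10 the days do not overlap, and the day 7 means of Ccl7, Cd83, Cd86, Ccl17 and Il4 lie under the dashed line at 6.85.

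Outside the chemokines, the largest falls included Chil3, F10 and Il4. Chil3, Ym1, a lectin of alternatively activated macrophages and of neutrophil precursors, had 10.27, 10.04 and 10.38 on day 3 and 8.03, 8.60, 8.04 and 8.39 on day 7. It fell by 1.96 ± 0.29 (3.90-fold lower, adjusted p = 0.00102), with a narrow spread within each day. Chil3 did not pass in the dissected samples alone (adjusted p = 0.084) or with the Hba-a1 level as a covariate (adjusted p = 0.0817). F10, coagulation factor X, went from 9.08, 8.86 and 8.72 to 7.60, 7.62, 6.97 and 7.42 and fell by 1.48 ± 0.30 (2.79-fold lower, adjusted p = 0.00989). Its other probe set differed by -1.88, and leaving out day 3 replicate 1 ended its call (adjusted p = 0.052). F10 also did not pass in the dissected samples alone (adjusted p = 0.2155) or with the Hba-a1 level as a covariate (adjusted p = 0.458). Il4, interleukin 4, the cytokine of type 2 immunity, had one probe set that fell from 6.43, 6.61 and 6.86 to 4.27, 4.79, 3.55 and 4.57 (by 2.34 ± 0.30, adjusted p = 0.00031). Both means lay within background, and its other probe sets differed by -0.33, -0.20 and -0.26. Smaller falls were those of the argonaute gene Ago2 (by 0.86, adjusted p = 0.0423), the sphingosine kinase gene Sphk1 (by 0.86, adjusted p = 0.039), the chloride transporter gene Clcn5 (by 0.84, adjusted p = 0.0155) and the interferon receptor gene Ifnar1 (by 0.77, adjusted p = 0.0233, to a day 7 mean of 6.83 within background). With the replicate block Ago2, Sphk1 and Ifnar1 did not pass (adjusted p = 0.123, 0.122 and 0.0863). Ago2 also lost its call without day 3 replicate 1, 2 or 3 or day 7 replicate 2 or 4 (adjusted p from 0.0515 to 0.234), and Sphk1 without day 3 replicate 1 or 3 or day 7 replicate 3 or 4 (from 0.0937 to 0.208). Ifnar1 lost it without any of the day 3 arrays or day 7 replicate 3 or 4 (adjusted p from 0.0515 to 0.0923) and Clcn5 without day 3 replicate 2 or 3 (0.0632 and 0.0974).

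Of 23 measured genes of dendritic cells and MHC class II presentation, 0 rose and 4 fell, beside the 0.388% of all genes that fell. Those were Cd83, Cd86, Irf4 and Ccl17, the last also counted among the CC chemokines, so these lists are not separate evidence. The list median was -0.30. The summed intensity was 7960 to 11502 on day 3 and 4742 to 8243 on day 7, ranges that overlapped. Cd83, a maturation marker, went from 7.23, 7.4 and 7.90 to 6.46, 6.77, 6.00 and 6.13 and fell by 1.17 ± 0.21 (adjusted p = 0.00386). The costimulatory ligand Cd86 went from 7.48, 7.08 and 6.85 to 5.95, 6.29, 5.87 and 6.16 and fell by 1.07 ± 0.18 (adjusted p = 0.00295). The transcription factor Irf4 fell by 0.72 ± 0.12 (adjusted p = 0.00216), with both means within background. The other probe sets of Cd83 and Cd86, both within background, differed by -0.14 and -0.32. The class II genes themselves did not pass: H2-Aa differed by -0.81 ± 0.35, H2-Ab1 by -0.80 ± 0.35 and the invariant chain Cd74 by -0.65 ± 0.25 (adjusted p = 0.407, 0.405 and 0.293). In the dissected samples alone 2 of the 23 passed, with a median of -0.45.

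The main leukocyte lists are read beside the 2.17% of all genes that rose and the 0.388% that fell. Of 24 measured markers of monocytes and macrophages, 0 rose and 0 fell, with a median of -0.16 and summed intensities of 28883 to 47732 on day 3 and 32358 to 50274 on day 7. Csf1r, the growth factor receptor of the lineage, had 10.36, 10.76 and 10.48 on day 3 and 10.43, 10.58, 10.63 and 9.64 on day 7, and Adgre1, F4/80, differed by -0.36 ± 0.31. The mannose receptor gene Mrc1 differed by -1.15 ± 0.43 and did not pass (adjusted p = 0.278), but did so without the washed-out day 3 array (adjusted p = 0.0153), in which it stood at 6.21 against 7.83 and 8.34. Mrc1 also passed as lower with preparation as a covariate (adjusted p = 0.000669) and in the dissected samples alone (adjusted p = 0.0155), but not with the replicate block (adjusted p = 0.106). The high-affinity Fc receptor gene Fcgr1 had 9.57, 9.83 and 9.60 on day 3 and 8.16, 9.63, 8.31 and 8.37 on day 7 (adjusted p = 0.232), and passed without the high day 7 replicate 2 (adjusted p = 0.0342). Among 23 measured markers of mature neutrophils 2 rose and 0 fell, with a median of 0.10 and sums of 19469 to 24057 and 18908 to 33595. Those were Mmp9, also counted among the metalloproteinases and the osteoclast genes, and the haptoglobin gene Hp. Hp rose by 1.04 ± 0.25 (2.06-fold, adjusted p = 0.0322) but lost its call with the replicate block (adjusted p = 0.0713), without day 3 replicate 1, 2 or 3 (adjusted p = 0.0803, 0.0579 and 0.176) and without day 7 replicate 1, 2 or 4 (adjusted p = 0.0716, 0.0831 and 0.0547). S100a8 (0.04 ± 0.22) and S100a9 (-0.03 ± 0.26) differed by less than their standard errors. Chil3 was the one gene of 15 neutrophil granule precursors that passed.

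Most lymphocyte genes were dim in the fluid. Means above background were reached by 4 of 18 measured T cell genes and 2 of 12 B cell genes. Of 18 measured T cell genes 0 rose and 2 fell, with a median of -0.03, and none of 12 B cell genes passed. Il7r, the interleukin 7 receptor, went from 7.76, 7.72 and 8.91 to 6.72, 7.2, 7.03 and 6.70 and fell by 1.22 ± 0.26 (2.33-fold lower, adjusted p = 0.0147), and lost its call without day 3 replicate 3 (adjusted p = 0.0527) or day 7 replicate 4 (adjusted p = 0.0511). Cd2 fell by 0.53 ± 0.11 within background (adjusted p = 0.018; adjusted p = 0.0747 and 0.0816 without day 3 replicate 2 or 3), and Cd3e had means of 6.44 and 6.52. Itgb7, an integrin chain of lymphocytes and mast cells, fell by 0.92 ± 0.17 (1.89-fold lower, adjusted p = 0.0052), from 9.31, 8.98 and 9.01 to 8.18, 8.36, 8.03 and 8.15, and its other probe set differed by -0.60. Of 7 measured erythroid genes 0 passed. The red cell enzyme gene Alas2 differed by -1.66 ± 0.45 (adjusted p = 0.0751) and Hba-a1 by -1.53 ± 0.42 (adjusted p = 0.0831), and the list's summed intensity was 3287 to 11620 on day 3 and 1372 to 3970 on day 7. Both passed without day 3 replicate 1 (adjusted p = 0.0071 and 0.0243) and without day 7 replicate 2 (adjusted p = 0.0256 and 0.0229).

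Receptor genes for interleukin 1 and oncostatin M rose. Il1r1, the signalling receptor of interleukin 1, was the one gene of 12 in the interleukin 1 family that passed: it lay at 4.91, 4.8 and 4.54 on day 3 and at 6.12, 6.47, 5.92 and 6.26 on day 7 and rose by 1.44 ± 0.18 (adjusted p = 0.000208), within background throughout. Il1b differed by -0.41 ± 0.44 at means of 10.26 and 9.85, and the antagonist gene Il1rn by -0.67 ± 0.41. Of 25 genes of TNF and interleukin 6 signalling 2 rose and 0 fell, beside the 2.17% of all genes that rose. Osmr, the oncostatin M receptor, rose by 1.53 ± 0.25 (adjusted p = 0.00216) from 5.09, 5.10 and 4.58 to 6.69, 7.02, 5.89 and 6.22, with both means within background. Tnfaip6, TSG-6, a hyaluronan-binding protein, rose by 1.73 ± 0.40 (adjusted p = 0.0287) and lost its call with the replicate block (adjusted p = 0.125), without day 3 replicate 1 or 2 (adjusted p = 0.119 and 0.137) and without day 7 replicate 2, 3 or 4 (adjusted p = 0.0624, 0.0539 and 0.0885). Tnf itself differed by -0.61 ± 0.22 (adjusted p = 0.255). Vcam1, an adhesion molecule of activated stroma, was the one riser among 22 adhesion genes, by 2.11 ± 0.34 (adjusted p = 0.00212, from a day 3 mean of 5.60 within background), and its other probe sets differed by 0.16 and 1.04.

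Some genes of cell division rose by a smaller amount. Of 26 measured proliferation genes 4 rose and 0 fell, beside the 2.17% of all genes that rose. Their median was 0.34, and 24 of the 26 differences were above 0. Cdk1, the mitotic kinase, went from 6.58, 6.45 and 5.87 to 7.50, 7.36, 7.04 and 7.3 and rose by 1.00 ± 0.19 (adjusted p = 0.00654), and Top2a, topoisomerase II alpha, rose by 0.87 ± 0.15 (adjusted p = 0.0026). Stmn1, stathmin, rose by 0.92 ± 0.18 (1.89-fold, adjusted p = 0.00908), lost its call without day 3 replicate 1 (adjusted p = 0.0554) and had another probe set that differed by 0.02. Ccnb2, cyclin B2, was at the threshold (adjusted p = 0.0496, adjusted p = 0.113 with the replicate block), and its adjusted p lay between 0.0699 and 0.165 without any single day 3 array or without day 7 replicate 1, 3 or 4. In the dissected samples alone 1 of the 26 passed, and with the Hba-a1 level as a covariate 0.

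Stress and metabolic genes were examined next. Of 20 antioxidant genes, the metallothionein gene Mt2 and the peroxiredoxin gene Prdx4 rose. Mt2 went from 11.28, 10.99 and 11.63 to 12.65, 12.58, 12.75 and 12.76 and rose by 1.39 ± 0.21 (2.62-fold, adjusted p = 0.00124), and Prdx4 by 1.09 ± 0.19 (2.13-fold, adjusted p = 0.00386). Scd1, stearoyl-CoA desaturase, which makes monounsaturated fat, went from 6.95, 7.2 and 7.50 to 9.23, 8.89, 8.79 and 8.81 and rose by 1.72 ± 0.23 (3.29-fold, adjusted p = 0.000492). Its other probe sets differed by 1.67 and -0.43, the latter at means of 8.05 and 7.62, above background. Cd36, a fatty acid and scavenger receptor, fell by 0.86 ± 0.17 within background (adjusted p = 0.0102), its other probe set differed by 0.09, and leaving out day 3 replicate 3 ended its call (adjusted p = 0.0566). Saa3, serum amyloid A3, rose by 1.22 ± 0.28 (2.34-fold, adjusted p = 0.0242) and lost its call without day 3 replicate 1, 2 or 3 (adjusted p = 0.114, 0.0513 and 0.0754) or day 7 replicate 2 or 3 (adjusted p = 0.0659 and 0.071). Ltc4s, leukotriene C4 synthase, was the one of 16 eicosanoid genes that passed, in a list with 12 differences below 0 and summed intensities of 2508 to 2721 on day 3 and 1877 to 2037 on day 7. It fell by 0.92 ± 0.20 (1.89-fold lower, adjusted p = 0.0196). It did not pass without day 3 replicate 2 or 3 (adjusted p = 0.0595 and 0.126) and day 7 replicate 2 or 3 (adjusted p = 0.0521 and 0.0565), and its other probe set differed by 0.10. Of 27 interferon response genes 1 passed, Ifit1 (1.04 ± 0.26, adjusted p = 0.0489), whose adjusted p lay between 0.104 and 0.204 without any single day 3 array or without day 7 replicate 2 or 3. Of 26 immediate early genes 0 passed, with a median of -0.29 and 21 differences below 0.

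Blood leukocytes of the same days are arrays that the fluid comparison did not use. In blood 0 of 8251 genes passed between day 7 and day 3 by limma, while 602 genes (7.3%) had an unadjusted p under 0.05, and the median differences of the 179 and 32 genes there were -0.08 and -0.07. The change in fluid exceeded the change in blood for 151 genes (1.83%) and lay below it for 28 (0.339%), tested as an interaction. Among them were 136 of the 179 risen and 14 of the 32 fallen genes. The interaction uses the same fluid arrays that called the 179 and 32, so these overlaps are not separate support. Without 1 fluid array in turn the count of genes below blood ranged from 14 to 80 (46 without day 3 replicate 1; 52, 80, 18 and 14 without day 7 replicates 1 to 4). Col5a2 had the smallest p of these: its difference in fluid exceeded that in blood, where it stood at 4.82 on day 3 and 4.68 on day 7, by 3.17 (adjusted p = 1.85e-08). For Ccl2 the change in fluid lay 2.27 below that in blood (adjusted p = 0.000228), where its means of 4.24 and 4.65 were within background. Among neutrophil genes the difference between tissues did not pass, with S100a8 at an interaction of -0.89 (adjusted p = 0.268) and Mmp9 at 0.48 (adjusted p = 0.764).

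Whole ankle shared part of the rise. In ankle 32 genes rose (0.388%) and 14 fell (0.17%) between the days, and 19 of the risen ones also rose in fluid, which is 10.6% of the fluid's list and 59.4% of the ankle's, while 0 fell in both. The shared genes include Mmp3, Mmp9, Mmp13, Cxcl5, Tnfsf11, Top2a, Slc9b2 and Tnc. Mmp13 rose by 2.76 in ankle (adjusted p = 0.00111) and Cxcl5 by 2.02 (adjusted p = 0.0408), and neither difference between the tissues passed (interactions of -0.44 and 0.39, both adjusted p = 1). Ankle day 7 replicate 1 stood apart in the liver gene Alb, at 8.41 against 4.36 to 5.02 in the other 6 ankle arrays. Without it 31 genes rose and 27 fell in ankle, with the same number of 19 risen and 0 fallen in both. The 19 were not all the same genes, since Slc9b2 no longer passed in ankle (limma, adjusted p = 0.0714). Ankle samples were extracted by SDS and urea per their descriptions and amplified by 2 rounds, as was 1 blood array of day 3, so tissue and preparation cannot be told apart.

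Some collagen genes changed in fluid beyond their change in ankle. The fluid change exceeded that of ankle for 45 genes (0.545%) and lay below it for 14 (0.17%). Among them were 38 of the 179 risen and 7 of the 32 fallen fluid genes, which were called from the same fluid arrays, so these overlaps are not separate support either. With the replicate block 76 genes exceeded ankle, in the dissected fluid samples alone the counts were 18 and 2, and without the ankle array of high Alb they were 56 and 11. Without fluid day 7 replicate 2 the count of genes below ankle was 22. Col1a2 stood at 12.31 on day 3 and 12.19 on day 7 in ankle, above its fluid levels on both days, and its change differed between the tissues by 2.67 (adjusted p = 0.000246), whereas for Col1a1 that difference was 1.42 (adjusted p = 0.306). Ccdc80 and Htra1, secreted matrix-associated proteins, differed by 2.27 (adjusted p = 4.19e-05) and 2.45 (adjusted p = 7.9e-05), with differences of 1.61 and 2.01 in fluid against -0.66 and -0.44 in ankle. In the opposite direction C1qtnf3, a collagen-domain protein of chondrocytes, rose by 4.67 in ankle and differed by 0.54 in fluid, an interaction of -4.14 (adjusted p = 0.000157), and Acan, the cartilage proteoglycan aggrecan, gave -2.0 (adjusted p = 0.00339). In fluid the mean signals of C1qtnf3 and Acan were so low that the filter on low signal left both out. S100a8 rose by 1.82 in ankle against 0.04 in fluid (interaction -1.78, adjusted p = 0.00562), and Mmp9 rose in both, by 3.48 in ankle and 1.54 in fluid (interaction -1.94, adjusted p = 0.00988). For Cd86 and Il4, which fell in fluid, ankle differed by 0.11 and -0.01 at means within background (interactions of -1.18 and -2.33, adjusted p = 0.00353 and 0.000254).

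**Figure D4:**
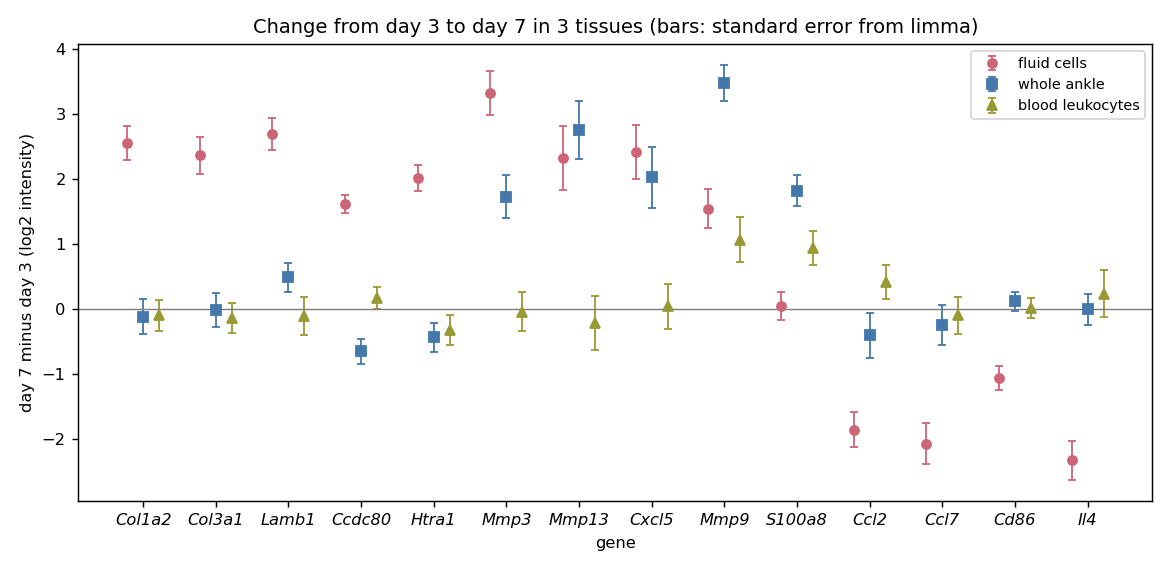
Difference between day 7 and day 3 (log2 intensity, bars are the standard error from limma) of 14 genes in fluid cells (7 arrays), whole ankle (7 arrays) and blood leukocytes (6 arrays). For Col1a2, Col3a1, Lamb1, Ccdc80 and Htra1 the fluid point exceeds the ankle point, Mmp3, Mmp13, Cxcl5 and Mmp9 rose in both, and Ccl2, Ccl7, Cd86 and Il4 fell in fluid.

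The levels of later days are set beside these values, with 3 fluid arrays each, always in the order of days 3, 7, 12 and 18. Col1a2 had means of 8.68, 11.23, 11.54 and 11.26, and Mmp3 of 5.60, 8.91, 9.33 and 9.14. Ctsk stood at 9.31, 11.33, 11.48 and 11.24. Cxcl5 had 4.84, 7.25, 7.68 and 6.57, the last within background. Among the falling genes Ccl2 had 10.87, 9.0, 9.89 and 9.36, Chil3 10.23, 8.27, 8.12 and 7.84 and Cd86 7.14, 6.07, 6.09 and 5.74. For these genes, which are among those plotted, the means of days 12 and 18 lay nearer to that of day 7 than to that of day 3. Other called genes did not follow this: Ago2 had 9.01, 8.15, 8.95 and 8.63, nearer to day 3 on both later days, and Cd83 had 7.51, 6.34, 6.95 and 6.68, nearer to day 3 on day 12. Ltc4s differed too, with means of 8.46, 7.55, 7.99 and 8.55, and so was Hba-a1, with 12.301, 10.77, 12.05 and 12.36.

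**Figure D5:**
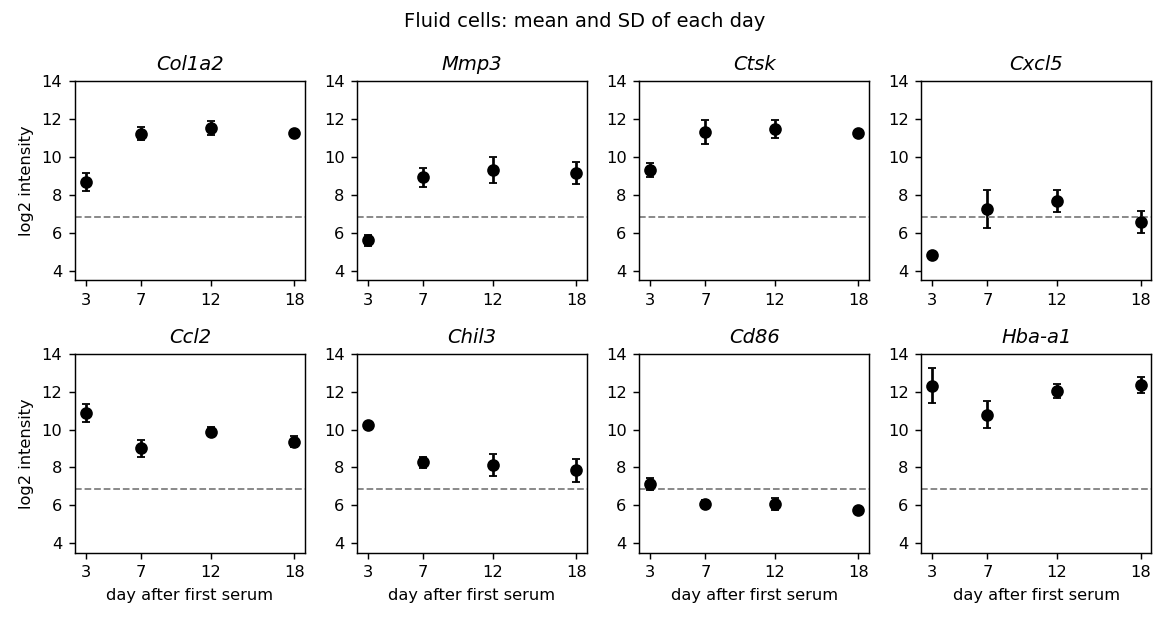
Mean log2 intensity of 8 genes in fluid cells on days 3, 7, 12 and 18 after the first serum injection, with bars for the SD between arrays (n = 4 on day 7, n = 3 on the other days) and the background limit dashed. Levels of Col1a2, Mmp3 and Ctsk on days 12 and 18 lie near those of day 7, and those of Hba-a1 near its day 3 level.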

How the data were processed

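The authors deposited 1 intensity per probe set on a linear scale, obtained with RMA per the submitters' processing notes; no version of RMA, which adjusts background, equalises array distributions and combines probes, is given in the sources used. Log2 was taken of these deposited intensity values, and for each of 8251 genes the brightest probe set, by mean over 49 arrays, was used. Probe sets were named through the platform annotation (10833 with 1 symbol, 396 with several), and the 66 control probe sets were left out. A trend fit over the 13 fluid arrays (limma 3.58.1, R 4.3.3, lmFit and eBayes) gave the difference between day 7 and day 3 with its standard error; two-sided p-values were adjusted over all genes by Benjamini-Hochberg. Changes in fluid, blood and ankle were compared by interactions in fits of both tissues. The background limit is the 95th percentile of 34 negative control probe sets. The number of arrays limits precision.

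Named genes were CXCR2 and its ligands, the 15 largest rises and falls called without overlap and above background, up to 4 members of each list described with the smallest p, called members against their list, and 5 genes per direction of each tissue difference; others are said to be chosen after their values were seen. The members, the 46 gene lists and the tests were chosen with earlier results of these data known. Arrays of the same replicate number deviated together (r = 0.528, 0.607 and 0.679 over genes for replicates 1, 2 and 3), and the labels give replicate 1 of both days as washed out, so the numbers were taken to pair the samples and the replicate block was fitted as an alternative. The main counts and p-values do not use this pairing. Day 7 replicate 4 shares its number with no other fluid array, so the block takes it out of the difference. The block therefore gives the same sizes as the fit without that replicate. The procedure was tested on simulated data whose noise was independent between arrays. That test therefore does not cover the shared deviations of same-numbered arrays.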

Additional observations from a re-analysis of the deposited data

Results flagged for a closer look

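Among the 156 genes named, 6 had a day 7 array far from the other 3, by a criterion that chance meets for about 1 in 20 groups. That share is no higher than the criterion gives by chance. Fstl1 was lowest in the washed-out replicate 1 (9.0). Replicate 2 was highest for Ifnar1 (7.00), Fcgr1 (9.63) and S100a8 (12.56). Replicate 4, the sample described otherwise, was highest for Irf4 (5.79) and lowest for Egr2 (7.21), a zinc finger gene of the immediate early response.

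The change from day 3 to day 7 differed between fluid and blood by an interaction test in limma. It was higher in fluid for Col5a2 (3.17), Fbln2 (2.44), Fkbp7 (1.92), Kdelr3 (2.37) and Fstl1 (2.84), and lower for Ccl2 (-2.27), Il4 (-2.57), Ccl7 (-1.98), Cd86 (-1.07) and Rgl1 (-1.71), a guanine nucleotide exchange factor. Between fluid and ankle it was higher in fluid for Ccdc80 (2.27), Htra1 (2.45), Fkbp7 (2.06), Col1a2 (2.67) and Lamb1 (2.21), and lower for C1qtnf3 (-4.14), Il4 (-2.33), Acan (-2.0), Cd86 (-1.18) and S100a8 (-1.78). These are differences of log2 changes, the tissues also differed in preparation, and C1qtnf3 and Acan had low signals in fluid. Other genes were within background in a tissue too. In blood this held for Ccl2, for Col5a2 (4.82 and 4.68 on days 3 and 7), for Fbln2 (6.40 and 6.29) and for Fstl1 (4.85 and 4.34). It also held for Il4 in fluid and for Cd86 and Il4 in ankle.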

How the results depend on the processing

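Day 7 against day 3 called 179 genes higher and 32 lower. Counts moved with array weights (341 and 144), with all 49 arrays in one fit (84 lower), with only the 7 arrays compared (15 lower), with only the dissected fluid arrays (104 and 8), with beta-actin as a covariate (14 lower) and with the Hba-a1 level (57 and 1), the last 2 chosen after seeing the data. Without 1 array in turn they ranged from 123 to 179 higher and from 20 to 50 lower; the lower count was 50 without day 7 replicate 1 or 2 and 20 without replicate 3. Fewer arrays enter the fits of the compared or dissected arrays; for the others the cause was not tested. The replicate block gave 176 and 23, and beside the losses given with the genes it made Cxcl12, Pros1, Gbp3 and Ifit2 pass and changed no other call of a named gene.

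Against blood, 151 and 28 became 14 lower with the dissected arrays and 129 to 171 higher and 14 to 80 lower without 1 fluid array in turn (46 without day 3 replicate 1; 52, 80, 18 and 14 without day 7 replicates 1 to 4). Against ankle, 45 and 14 became 85 and 25 with all 49 arrays, 18 and 2 with the dissected arrays and 76 higher with the replicate block, and ranged from 34 to 47 higher and 10 to 22 lower without 1 fluid array in turn (22 without day 7 replicate 2). Other scalings, filters and robust fits kept these counts within 1.5 times. None of the 156 named genes reversed past the threshold under any alternative run; of the 75 called, 46 lost the call with Hba-a1 as a covariate, 34 in the dissected arrays, 22 with beta-actin, 21 with only the arrays compared, 20 with a floor at the 20th percentile and 5 to 20 without 1 array. In 26 combinations of a called gene and a setting the size moved by over 1.5 times, as far as 0.223 of its size for Tnfsf11 with the floor. Differences near background are limited by signal.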

Other observations

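The list of genes that rose in both fluid and ankle also held, named after their values were seen, Crabp2, a retinoic acid carrier, the prostaglandin F receptor gene Ptgfr, the adhesion gene Ncam1, the protease inhibitor gene Tfpi2, and Smoc1 and Ccn4, which encode secreted matrix-associated proteins.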
